A study of Danio rerio with 6 samples.

Results

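Quantitative PCR (qPCR) reads the level of a target gene against a reference gene that is taken to be steady between the samples compared. The genes described here are 9 common reference genes of zebrafish, chosen by symbol: the cyclophilins ppiaa, ppiab and ppib, the cytoplasmic actins actb1 and actb2, and hprt1, tbp, b2m and lsm12b. The older name of ppiab is ppial, the reference gene to which the qPCR of the study was scaled. The 9 symbols had 11 entries among the 30258 genes of the deposited gene table, because actb1 and hprt1 have 2 entries each. Reads were found for 10 of these entries, and all 10 passed the filter on low counts and were tested, while the second hprt1 entry, ENSDARG00000117138, was listed at 0.

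RNA of whole larvae was sequenced at 5 days post-fertilization (dpf) with reads of 150 nt, in 3 wild type samples (tlr2+/+) and 3 samples of the tlr2 mutant (tlr2-/-), without infection or other treatment. The tlr2-/- larvae were homozygous for the allele sa19423, which was made by ENU mutagenesis, and this line had been outcrossed to ABTL wild type fish. Each sample came from a single cross, and the parents of the 2 genotypes were different fish, so the effect of the mutation and that of other alleles shared by the parents of a genotype cannot be told apart. The tissue is the whole animal, in which a change in the number of cells of a type and a change of the RNA per cell cannot be told apart.

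The libraries held 17854737 to 33403126 estimated reads, and between 11906 and 19194 genes had at least 10 reads. tlr2, the innate immune receptor gene that carries the mutation, has 2 entries with no read in any library. Its RNA therefore gives no check of the genotypes. A count of 0 allows up to 3 counts, which is 0.0567 to 0.183 CPM for counting error only, where CPM is the count divided by the scaled library total. The scaling factor of wild type replicate 3 was 1.59, against 0.789 to 0.983 in the other 5 libraries. This library had the lowest CPM for 6 of the 10 reference entries and the highest for another 2. TPM, which divides reads by transcript length and then sets all libraries to the same sum without this factor, is therefore given beside CPM. The biological coefficient of variation over all genes was 1.05. Skeletal muscle, retina, liver, pancreas, neuron, blood and skin markers were all detected, while the heart gene myl7 stayed between 0 and 2.27 CPM. Their summed level was 49770 CPM in wild type replicate 3 and 114537 to 173885 CPM in the other libraries. The muscle gene actc1b led this sum, with 21981 CPM in wild type replicate 3 and 59900 to 110966 CPM in the others. Not every marker followed the sum. In wild type replicate 3 snap25a and gfap were at their highest, 119 and 176 CPM, while rho was at its lowest, 2491 CPM. The 10 leukocyte markers summed to 45.7 to 115 CPM in tlr2+/+ and 67.9 to 106 CPM in the mutant libraries, with ptprc, mpeg1.1 and spi1b each below 1 CPM. At an unadjusted p under 0.05, where 1.73% of all genes were higher and 1.99% lower in the mutant, none of 8 tested leukocyte entries passed. Of 22 larval tissue entries the rod opsin gene rho was higher at that level, and its genotypes did not overlap. krt4 ENSDARG00000115790 and krt5 ENSDARG00000112017 of the skin were lower at that level, but overlapped between the genotypes. The part of these shifts in the results below was not tested.

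Cyclophilins are peptidyl-prolyl isomerases, enzymes that turn the bond before a proline and so help proteins to fold. Actins build the filaments of the cell cortex and cytoskeleton. Reference genes are drawn from such families, and from nucleotide metabolism, transcription and RNA binding, because most cells use them, which does not by itself make their RNA equal between 2 groups of animals.

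The reference genes covered more than 3 orders of RNA abundance per transcript length. The mean TPM over the 6 libraries (± SD) was 4396 ± 1077 for actb2, 3095 ± 528 for ppiaa, 1519 ± 395 for ppiab, 1079 ± 382 and 897 ± 561 for the actb1 entries ENSDARG00000037746 and ENSDARG00000113649, and 269 ± 71.9 for ppib. The lower genes were lsm12b at 42.2 ± 32.4 TPM, tbp at 10.3 ± 3.17 TPM, hprt1 at 2.47 ± 2.00 TPM and b2m at 1.28 ± 1.90 TPM. The ranges of ppiaa and ppiab, of ppib and lsm12b, and of lsm12b and tbp did not overlap. Those of the other neighbours in this order did, although actb2 was above ppiaa and tbp above hprt1 within each of the 6 libraries. The order of ppiab, the actb1 entries and ppib differed between libraries, since ppiab exceeded actb1 ENSDARG00000037746 in 4 of 6, that entry exceeded the other actb1 entry in 3 of 6, and the other entry exceeded ppib in 4 of 6.

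**Figure D1:**
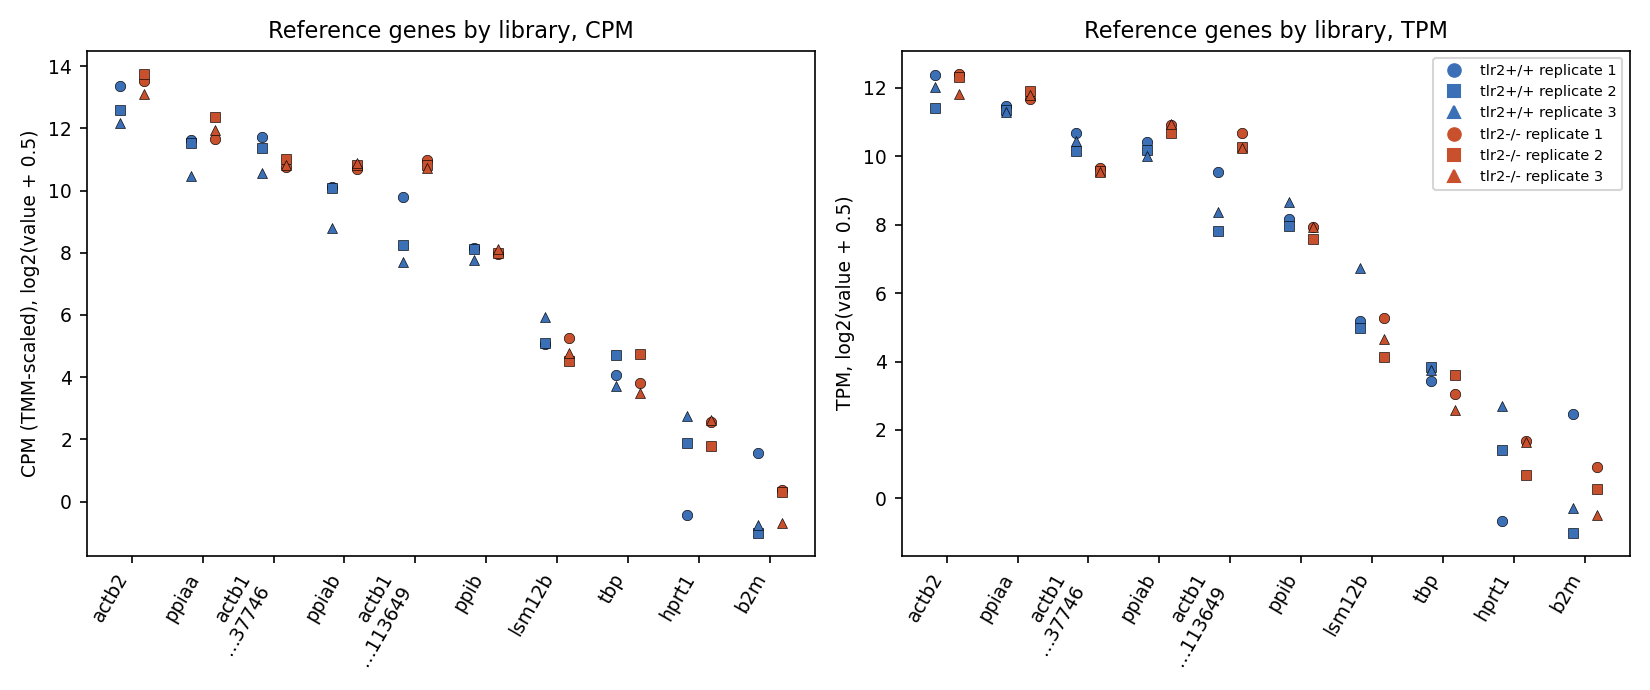
Level of each reference gene entry in each library on a log2 scale, as CPM scaled with TMM factors (left) and as TPM (right), with 0.5 added before the log. Blue symbols are the 3 tlr2+/+ and orange symbols the 3 tlr2-/- libraries, with a shape for each replicate number; ppiaa, ppiab and actb1 ENSDARG00000113649 were higher in all 3 tlr2-/- libraries on both scales, and tlr2+/+ replicate 3 (blue triangles) was lowest for 6 entries in CPM.

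To ask whether the reference genes were steady between the genotypes, their counts were read from a fit of all 16776 genes tested by the quasi-likelihood method of edgeR, in which p-values were adjusted over all of these genes after Benjamini and Hochberg. In this fit no reference gene passed an adjusted p under 0.05 (adjusted p = 1.00 for all 10 entries), beside 1 of all genes tested, or 0.00596%. The study, which used S values on the same libraries, did call actb1 ENSDARG00000113649 higher in the mutant, and none of the other reference entries. The share of all genes that passed its S value was not computed here, so this is no rate among the reference genes. Its list also held rho, actc1a ENSDARG00000042535, taf13 ENSDARG00000070834 and lsm3 as higher, and ywhaz and eef1a1a as lower. At an unadjusted p under 0.05, 2 of the 10 entries, ppiab and actb1 ENSDARG00000113649, were higher in the mutant larvae and 0 lower, beside 1.73% of all genes higher and 1.99% lower (3.73% in both directions). DESeq2's Wald test on the same counts, which called 30 of the 16776 genes (15 higher, 15 lower), passed 1 of the 10 entries, actb1 ENSDARG00000113649. The CPM of the genotypes did not overlap for 3 of the 10 entries, these 2 and ppiaa, all higher in the mutant, beside 6.87% of all genes higher and 6.2% lower (13.1% in both directions). Without wild type replicate 3, chosen after seeing the data, the same 3 entries were higher without overlap, and ppib and actb1 ENSDARG00000037746 were lower, beside 25.1% of all genes higher and 11.3% lower. In TPM, 3 entries were higher and 2 lower without overlap, beside 2.53% and 12.9% of all genes. Between 3 and 3 libraries the smallest exact two-sided permutation p is 0.1. Positive log2 fold changes below are higher in tlr2-/-.

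ppiab encodes a cytosolic cyclophilin of the cyclophilin A type. It was measured at 1113, 1089 and 442 CPM in wild type replicates 1, 2 and 3 and at 1640, 1819 and 1883 CPM in the mutant libraries. Every mutant library was above every wild type library, and the mutant libraries lay close together while wild type replicate 3 lay far below the other 2. The mean was 881 ± 381 CPM (SD, n = 3) in tlr2+/+ and 1780 ± 126 CPM in the mutant, a log2 fold change of 1.01 (SE 0.42, 95% interval 0.11 to 1.92) with an adjusted edgeR p of 1.00. Without wild type replicate 3 the log2 fold change was 0.71. In TPM the values were 1356, 1169 and 1036 in tlr2+/+ and 1944, 1643 and 1967 in the mutant, again without overlap. All reads of ppiab were assigned to 1 transcript of 858 nt, so no division between isoforms enters its values.

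ppiaa, the other cyclophilin A type gene, was measured at 3146, 2942 and 1410 CPM in tlr2+/+ and at 3228, 5261 and 3988 CPM in the mutant libraries. The genotypes did not overlap, but the lowest mutant value was only just above the highest wild type value. The log2 fold change was 0.73 (SE 0.43, 95% interval -0.20 to 1.67), and 0.46 without wild type replicate 3. In TPM the wild type libraries held 2825, 2603 and 2521 and the mutant libraries 3258, 3814 and 3546. Most reads of ppiaa, 79.5% to 90.5% of them, fell on 1 transcript of 1585 nt. A transcript of 722 nt took 6219 reads in mutant replicate 2 and 93 in mutant replicate 1 but none in the other 4 libraries.

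ppib encodes the cyclophilin B of the endoplasmic reticulum. It was measured at 282, 280 and 219 CPM in tlr2+/+ and at 250, 253 and 278 CPM in the mutant libraries. The genotypes overlapped and the means were nearly the same, at 260 ± 36.2 and 260 ± 15.2 CPM. The log2 fold change was -0.00 (SE 0.33, 95% interval -0.71 to 0.71), so a difference of up to 0.71 in either direction lies within the interval. This steadiness belongs to the CPM scale. In TPM the wild type libraries held 286, 251 and 402 and the mutant libraries 243, 191 and 243, so every mutant value was below every wild type value.

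The cyclophilin family beyond these 3 genes gave no called gene either. Of 19 tested entries of the family list, which holds the 3 reference genes too, 12 had positive and 7 negative log2 fold changes, with a median of 0.33 beside 0.02 over the whole table. With unadjusted p-values under 0.05, 2 were higher, ppiab and ppil1, and 0 were lower, beside 1.73% and 1.99% of all genes. ppil1, a cyclophilin of the spliceosome, had 15.2 ± 4.73 CPM in tlr2+/+ and 34.2 ± 13.4 CPM in the mutant, a log2 fold change of 1.17 (SE 0.44, adjusted p = 1.00).

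actb1 and actb2 encode the β-actins of non-muscle cells. actb2, the most abundant reference gene, was measured at 10571, 6168 and 4591 CPM in tlr2+/+ and at 11761, 13852 and 8731 CPM in the mutant libraries. Wild type replicate 1 lay within the range of the mutant, and the genotypes overlapped. The log2 fold change of actb2 was 0.69 (SE 0.45, 95% interval -0.28 to 1.65), and it was 1.18 without wild type replicate 1 and 0.46 without wild type replicate 3. In TPM the values were 5280, 2734 and 4190 in tlr2+/+ and 5458, 5094 and 3621 in the mutant, with overlap. A single transcript of 1789 nt took at least 99.3% of the reads of actb2 in every library.

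The 2 entries of actb1 had log2 fold changes of opposite sign, as did 435 (46.6%) of the 934 symbols with 2 tested entries. Whether these entries are separate genes, copies or alleles of one gene in GRCz11 is not given in the sources used here, so a change of expression of either entry and a different assignment of reads between them cannot be told apart. ENSDARG00000113649 was measured at 891, 301 and 207 CPM in tlr2+/+ and at 2025, 1794 and 1695 CPM in the mutant libraries. The groups did not overlap, and the log2 fold change of 1.98 (SE 0.52, 95% interval 0.86 to 3.10, adjusted p = 1.00) was larger than that of any other reference gene. ENSDARG00000037746 was measured at 3384, 2628 and 1511 CPM in tlr2+/+ and at 1734, 2073 and 1814 CPM in the mutant libraries. It overlapped in CPM, with a log2 fold change of -0.42 (SE 0.40) that was -0.07 without wild type replicate 1 and -0.67 without wild type replicate 3. In TPM the wild type libraries (1655, 1148 and 1382) were all above the mutant libraries (800, 752 and 739).

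Within each library these entries can be compared without any scaling factor, as the share of actb1 reads that fell on ENSDARG00000113649. This share was 20.8%, 10.3% and 12.1% in the wild type libraries and 53.9%, 46.4% and 48.3% in the mutant libraries. The counting error was small, with Wilson 95% intervals of 20.6% to 21.1% in wild type replicate 1 and 53.5% to 54.2% in mutant replicate 1. The groups were far apart, with mean shares of 14.4% ± 5.66 and 49.5% ± 3.88 (SD, n = 3), a difference of 35.1 percentage points, with an exact two-sided permutation p of 0.1, the smallest possible. Salmon divides reads that match several transcripts, so each share is an estimate, and the interval covers counting error only.

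Shares that do not overlap between the genotypes were not rare among symbols with 2 entries. The shares were compared for 815 symbols, a smaller number than the 934 with 2 tested entries. Of these 815, 84 (10.3%) did not overlap, the median shift was 10.2 percentage points, and 63 had a larger shift than actb1. Among the 29 symbols in which both entries had a mean of at least 100 CPM, 7 (24.1%) did not overlap and 0 had a larger shift than actb1. actb1 was the 1 reference gene on the chromosome of tlr2 in the RefSeq annotation of GRCz12tu, with 6 annotated genes between actb1 and tlr2, of which 4 code for proteins. That assembly is not the GRCz11 of the files, so no coordinates are given. Of these neighbours, grin2ab, a glutamate receptor subunit gene, was tested, with a log2 fold change of 1.78 and overlapping genotypes. Sequence differences near tlr2 between the parents of the genotypes were not tested.

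With both entries summed, the difference between the genotypes was small beside the spread of the wild type libraries, though not beside that of the mutant libraries. The sum was 4291, 2937 and 1701 CPM in tlr2+/+ and 3762, 3868 and 3508 CPM in the mutant libraries. The genotypes overlapped, with means of 2977 ± 1296 and 3713 ± 185 CPM and a log2 fold change of 0.32 (SE 0.42). The summed TPM of 1977 ± 409 over the 6 libraries places actb1 between ppiaa and ppiab.

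**Figure D2:**
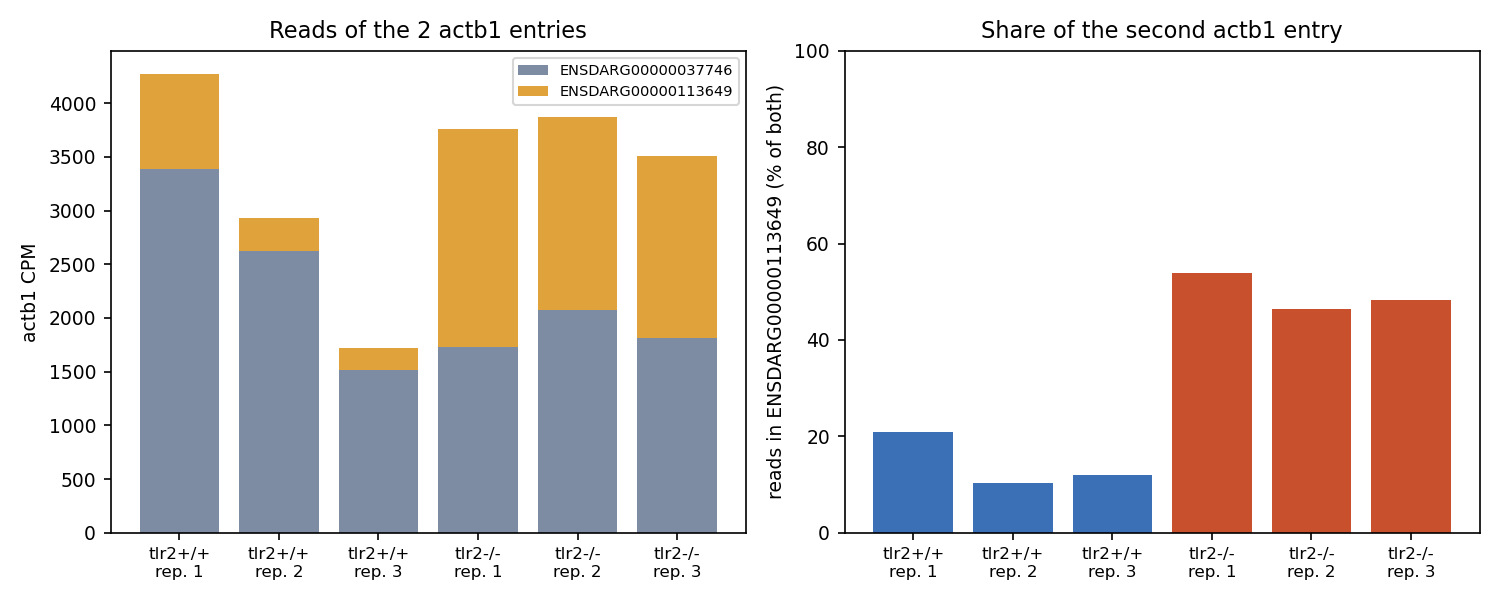
Left, CPM of the 2 actb1 entries stacked in each of the 6 libraries; right, the percentage of actb1 reads assigned to ENSDARG00000113649, with blue bars for tlr2+/+ and orange bars for tlr2-/-. The share lies between 10.3% and 20.8% in tlr2+/+ and between 46.4% and 53.9% in tlr2-/-, while the stacked height overlaps between the genotypes.

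Of 10 tested actin entries, which include the muscle actins and the reference genes above, 8 had positive and 2 negative log2 fold changes, with a median of 0.69, beside 8579 positive and 8197 negative over all genes. At an unadjusted p under 0.05, 3 were higher and 0 lower, beside 1.73% and 1.99% of all genes. Beside actb1 ENSDARG00000113649 these were actc1a ENSDARG00000042535, a muscle actin, with 576 ± 318 CPM in tlr2+/+ and 1399 ± 245 CPM in the mutant (log2 fold change 1.28), and actc1c with 245 ± 96.4 and 520 ± 123 CPM (log2 fold change 1.08). The proteins that nucleate, cap and bind actin filaments were divided, with 10 of 23 tested entries positive and 13 negative and a median log2 fold change of -0.08. In this list actr3, a subunit of the Arp2/3 complex that starts filament branches, was higher (log2 fold change 1.15) and capza1a, a subunit of the capping protein, lower (log2 fold change -0.77), and neither passed the adjusted threshold.

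The 4 less abundant reference genes showed no separation of the genotypes. tbp, the TATA-box binding protein of the general transcription machinery, was measured at 16.4, 25.5 and 12.7 CPM in tlr2+/+ and at 13.7, 26.4 and 10.7 CPM in the mutant libraries. The genotypes covered nearly the same range, and the log2 fold change was -0.10 (SE 0.50, 95% interval -1.19 to 0.99). lsm12b, a member of the RNA-binding Lsm family, was measured at 32.9, 33.5 and 61.3 CPM in tlr2+/+ and at 38.0, 22.5 and 27.0 CPM in the mutant libraries. Wild type replicate 3 was high, the other 5 libraries overlapped, and the log2 fold change was -0.55 (SE 0.40), and -0.17 without that library. The TPM of lsm12b was 107 in wild type replicate 3 and 17.2 to 37.9 in the other 5 libraries.

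hprt1 and b2m had few reads. hprt1, an enzyme that salvages the purines hypoxanthine and guanine, had 7, 58 and 327 reads in wild type replicates 1, 2 and 3 and 117, 56 and 92 reads in the mutant libraries. These counts equal 0.233, 3.21 and 6.18 CPM in tlr2+/+ and 5.38, 2.95 and 5.61 CPM in the mutant, so the wild type libraries alone spanned the whole range. Its log2 fold change was 0.53 (SE 1.25, 95% interval -2.17 to 3.23). A transcript of 1706 nt carried 42 and 161 of the hprt1 reads of wild type replicates 2 and 3 and no read in the other 4 libraries, where all reads fell on a transcript of 3577 nt.

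b2m, the light chain of MHC class I, had 74, 0 and 5 reads in tlr2+/+ and 17, 14 and 2 reads in the mutant libraries. Wild type replicate 1 alone held more reads than the other 5 libraries together, and none of the 4 transcripts of b2m had reads in more than 2 libraries. A count of 0 in wild type replicate 2 allows up to 0.166 CPM. The log2 fold change of -0.64 (SE 2.39) was 3.47 without wild type replicate 1.

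The genes that work with these 4 were also counted as lists, which hold tbp, lsm12b, hprt1 and b2m themselves too. The median of the first list below is the value of tbp itself. Of 29 entries of TFIID and the general transcription factors, 13 had positive and 16 negative log2 fold changes (median -0.10), with 2 higher at an unadjusted p under 0.05 and 0 lower, beside the same 1.73% and 1.99% of all genes. Among them taf13 ENSDARG00000070834, a TFIID subunit, was measured at 8.80, 7.81 and 11.01 CPM in tlr2+/+ and at 35.6, 47.7 and 39.3 CPM in the mutant libraries. This separation, a log2 fold change of 2.15 (SE 0.40, adjusted p = 0.582), was wider than that of any reference gene. gtf2b, the factor that bridges TBP and RNA polymerase II, had 27.4 ± 3.80 CPM in tlr2+/+ and 48.6 ± 11.7 CPM in the mutant (log2 fold change 0.82). Of 12 Lsm entries 6 were positive and 6 negative (median -0.03), with 1 higher at an unadjusted p under 0.05. This was lsm3, a component of the Lsm rings that bind RNA, which had 20.1 ± 7.96 CPM in tlr2+/+ and 49.7 ± 3.77 CPM in the mutant (log2 fold change 1.31, adjusted p = 1.00). Of 17 purine salvage entries 9 were positive and 8 negative (median 0.12), and of 11 entries of antigen presentation on MHC class I 3 were positive and 8 negative (median -0.34), with no entry of either list at an unadjusted p under 0.05. b2ml, a relative of b2m, had 17.5 ± 10.97 CPM in tlr2+/+ and 29.3 ± 8.58 CPM in the mutant, with overlap.

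Stability over all 6 libraries was described by the SD of log2(CPM + 0.5), with no test. ppib had the smallest SD of the reference genes, 0.142, and 0.185% of all tested genes had a smaller one. Among the 968 tested genes with a mean of at least 100 CPM, 1.03% did. The SD was 0.430 for actb1 ENSDARG00000037746, 0.486 for lsm12b, 0.524 for tbp, 0.602 for actb2 and 0.635 for ppiaa. ppiab followed with 0.786, a CV of 41.6% in CPM beside 9.54% for ppib, whereas in TPM the CV was 26.0% for ppiab and 26.7% for ppib. Among the genes of at least 100 CPM, 82.7% had a smaller SD than ppiab, and 68.2% a smaller one than ppiaa, on the scaled CPM. With no scaling factors the SD was 0.488 for ppiab, 0.315 for ppiaa and 0.263 for ppib. The SD of b2m was 0.971, that of hprt1 1.196 and that of actb1 ENSDARG00000113649 1.42, and the actb1 entries summed had 0.484. These values lean on wild type replicate 3, without which the SD was 0.386 for ppiab, 0.342 for ppiaa, 0.292 for lsm12b and 0.0860 for ppib, and hprt1 had 0.442 without wild type replicate 1.

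In CPM, the spread of ppiab came from the wild type libraries and the distance between the groups. Its SD was 0.760 within the wild type but 0.104 within the mutant. The mutant libraries were also the closer set for ppiaa (0.353 against 0.642), ppib (0.0830 against 0.209) and actb2 (0.338 against 0.610), whereas tbp spread more in the mutant (0.653 against 0.495). For the cyclophilins the wild type spread rested largely on replicate 3. In wild type replicates 1, 2 and 3, log2(CPM + 0.5) was 10.12, 10.09 and 8.79 for ppiab. It was 11.62, 11.52 and 10.46 for ppiaa, and 8.14, 8.13 and 7.78 for ppib. Wild type replicates 1 and 2 alone lay closer together than the mutant libraries, so which set was closer turned on replicate 3. For actb2 the values were 13.37, 12.59 and 12.16. In unlogged TPM the mean ± SD of ppiaa was 2650 ± 157 in tlr2+/+ and 3539 ± 278 in the mutant. For ppiab it was 1187 ± 161 and 1851 ± 181. Unlike the CPM values these SDs are not on a log2 scale, and the mutant means were higher. Relative to the mean, the SD of ppiaa was smaller in tlr2+/+ and that of ppiab smaller in the mutant. On the same unlogged scale the mutant had the smaller SD for ppib (29.9 against 79.2) and actb2 (973 against 1278). This held relative to the means too, which were 226 against 313 TPM for ppib and 4724 against 4068 TPM for actb2. The order of the genes by SD belongs to the CPM scale. On log2(TPM + 0.1) ppiaa had the smallest SD over the 6 libraries, 0.245, followed by ppib with 0.356, ppiab with 0.386 and actb2 with 0.389. lsm12b and b2m spread more on that scale, with 0.885 and 1.96. The offset differs too, at 0.1 for TPM and 0.5 for CPM. For b2m, with 0 reads in wild type replicate 2, the change of scale and that of offset cannot be told apart here.

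**Figure D3:**
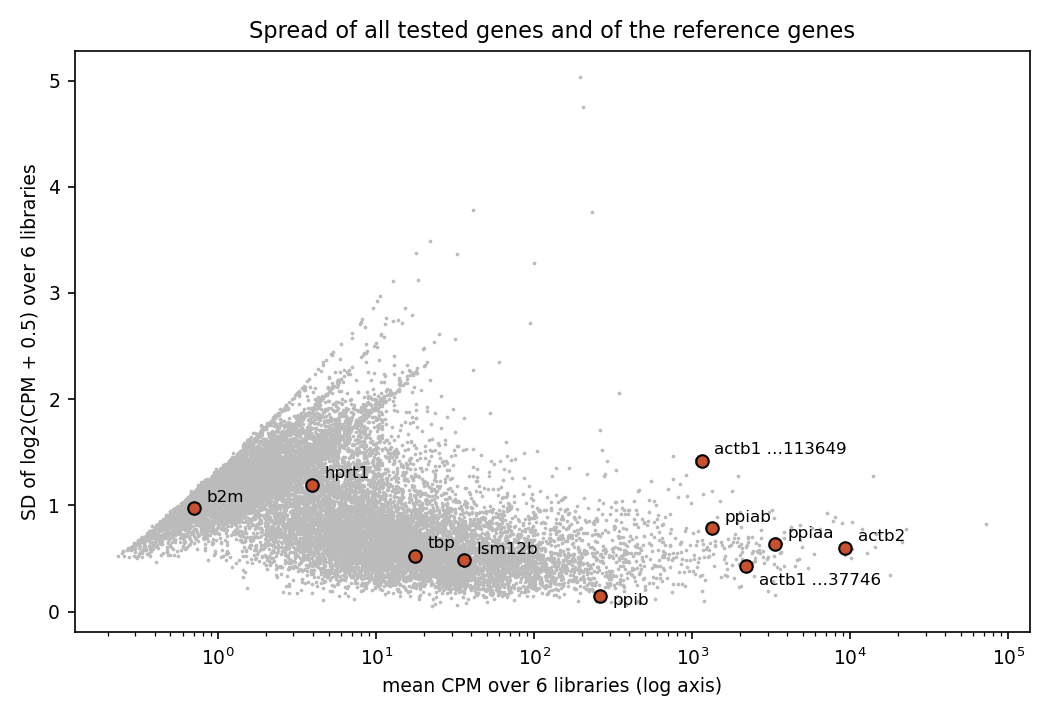
SD of log2(CPM + 0.5) over the 6 libraries against mean CPM (log axis) for all 16776 tested genes (grey) and the 10 reference gene entries (orange). ppib, at 260 CPM with an SD of 0.142, lies at the lower edge of the cloud, while ppiab (0.786) and actb1 ENSDARG00000113649 (1.42) lie in its upper part at their level.

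A ratio of 2 genes within a library does not depend on the scaling factor. For the 8 entries with at least 10 reads in every library, the SD of the log2 ratio was computed for all 28 pairs, and M of a gene is its mean over the other 7. M was 0.653 for ppiaa, 0.661 for actb2, 0.668 for ppib, 0.740 for ppiab, 0.745 for actb1 ENSDARG00000037746, 0.817 for tbp, 1.06 for lsm12b (0.654 without wild type replicate 3) and 1.28 for actb1 ENSDARG00000113649. With the actb1 entries summed, actb1 came first with 0.498 and ppiab had 0.666, above the values of ppiaa, ppib and actb2. The steadiest pair was ppiaa and ppiab, with an SD of 0.275, followed by ppib and actb1 ENSDARG00000037746 (0.335) and by ppiaa and actb2 (0.337). The least steady pair joined actb1 ENSDARG00000113649 and lsm12b, with 1.80. A low M can also arise where genes move together, which M does not tell from steadiness. The lowest CPM in wild type replicate 3 was shared by 6 entries, among them ppiaa, ppiab and actb2 but also actb1 ENSDARG00000113649, which had the largest M. Without wild type replicate 3 every M was lower, and ppib came first with 0.541. It was followed by ppiaa (0.549), ppiab (0.585) and actb2 (0.589), with lsm12b as given above. M was then 0.696 for actb1 ENSDARG00000037746, 0.786 for tbp and 1.15 for actb1 ENSDARG00000113649. How far genes moving together in that library shaped M was not tested further.

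**Figure D4:**
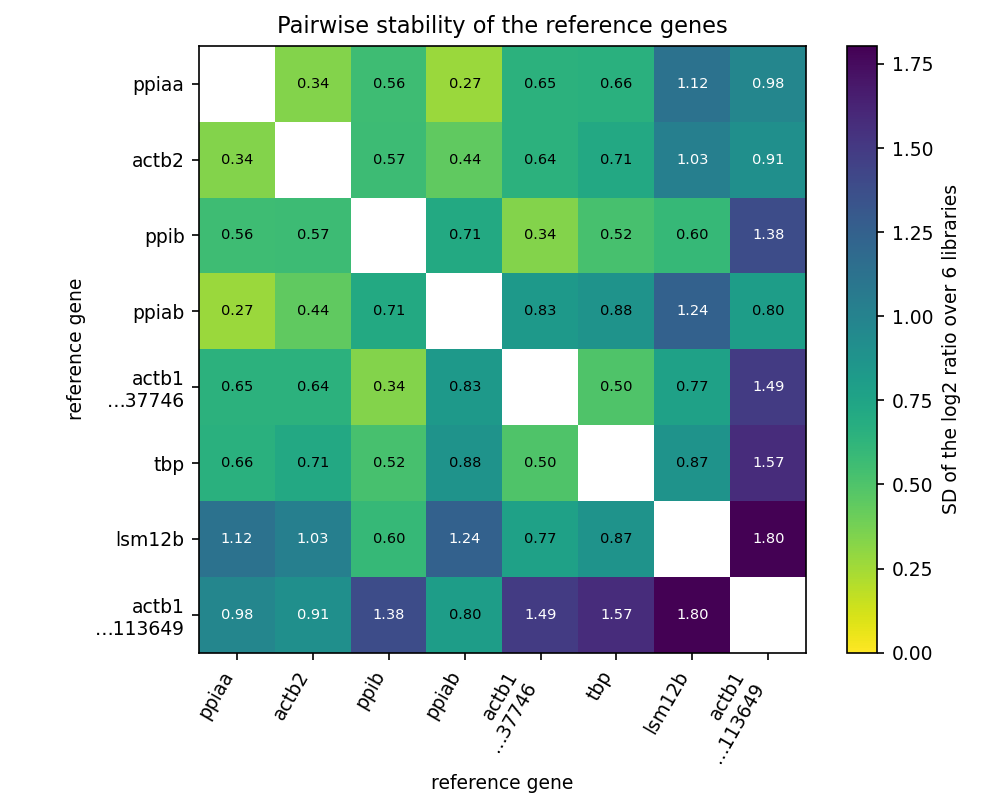
SD over the 6 libraries of the log2 ratio of each pair of the 8 reference gene entries with at least 10 reads in every library, ordered by M from top to bottom. Light cells mark steady pairs, such as ppiaa and ppiab (0.275), and the darkest cell is actb1 ENSDARG00000113649 with lsm12b (1.80).

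Between the genotypes, 15 of the 28 ratios did not overlap, 7 of them with actb1 ENSDARG00000113649. The background depends on the reference. Of all tested genes, 49.4% had a lower and 0.0358% a higher ratio to actb1 ENSDARG00000113649 without overlap, 27.6% a lower and 0.191% a higher ratio to ppiab, and 6.47% a lower and 5.86% a higher ratio to ppib. With the entries of actb1 summed, 6 of 21 ratios did not overlap. The log2 ratio of ppiab to ppib was higher in the mutant by 1.12, that to tbp by 1.28, that to lsm12b by 1.65, and that to actb1 ENSDARG00000037746 by 1.48. Its ratio to actb1 ENSDARG00000113649 was lower in the mutant by 1.13. Each of these had an exact permutation p of 0.1 and an adjusted p of 0.187 over the 28 pairs. Against ppiaa and actb2 the ratio of ppiab overlapped, with shifts of 0.34 and 0.38. The pairs among ppib, tbp, lsm12b and actb1 ENSDARG00000037746 all overlapped, with shifts of at most 0.52.

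How a reference shifts the whole table is seen when every tested gene is divided by it. Against ppiab, 27.6% of the other 16775 genes were lower in the mutant without overlap and 0.191% higher, with a median log2 shift of -0.91. Against ppiaa the shares were 17.3% and 0.584%, and against actb2 15.6% and 0.662%. Against actb1 ENSDARG00000113649 they were 49.4% and 0.0358%. The opposite held for lsm12b, with 0.751% lower and 19.0% higher, and for actb1 ENSDARG00000037746, with 1.99% and 10.7%. ppib (6.47% and 5.86%) and tbp (2.09% and 4.31%) gave shares closer to balance. These shares, and which references are near balance, rest in part on wild type replicate 3. Without it 13.3% of genes were higher against ppiab, 31.1% against ppib, 25.7% against tbp and 46.6% against actb1 ENSDARG00000037746, while the shares of genes lower were 28.3%, 9.1%, 3.06% and 2.46%, and the median shift against ppiab was -0.37. Against ppiaa 18.5% were then lower and 15.7% higher, against actb2 17.3% and 14.1%, against lsm12b 6.52% and 29.8%, and against actb1 ENSDARG00000113649 49.6% and 1.78%.

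The qPCR of the study read 3 genes of glycolysis and gluconeogenesis. The study had called these 3 lower in the mutant in its RNA sequencing and ran the qPCR to check that. Their direction in the same libraries is therefore no separate result. gpib encodes glucose-6-phosphate isomerase, pfkma a muscle phosphofructokinase and pck2 the mitochondrial phosphoenolpyruvate carboxykinase. gpib was measured at 60.02, 59.88 and 33.2 CPM in tlr2+/+ and at 13.3, 11.1 and 19.8 CPM in the mutant libraries, and pfkma at 188, 96.1 and 64.3 CPM and at 53.8, 43.9 and 37.1 CPM. Both were lower in every mutant library, with log2 fold changes of -1.79 (SE 0.41, adjusted p = 0.940) and -1.37 (SE 0.42, adjusted p = 1.00). The main pck2 entry, ENSDARG00000020956, had a log2 fold change of -2.30 (SE 0.69), with 48.0, 5.54 and 23.8 CPM in the wild type, where replicate 2 fell within the mutant range of 3.48 to 6.34 CPM. The other entry, ENSDARG00000110463, had 5.23 to 9.24 CPM in tlr2+/+ and 0 to 6.89 CPM in the mutant, a log2 fold change of -1.21 (SE 1.31). With both entries summed, pck2 had 57.5, 13.9 and 28.7 CPM in tlr2+/+ and 13.2, 5.90 and 6.40 CPM in the mutant. The sums did not overlap, with the lowest wild type value only just above the highest mutant value, and the log2 fold change was -1.97 (SE 0.56).

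The difference of each target, read as a log2 ratio of CPM + 0.5 to each of the 10 reference entries, was negative in all 40 combinations and without overlap in 23. The share of all genes lower without overlap ran from 0.751% against lsm12b to 49.4% against actb1 ENSDARG00000113649, and was not computed for hprt1 and b2m. The ratios to b2m, and those of pck2 ENSDARG00000110463 in mutant replicate 2, which had 0 reads, rest in part on the added 0.5. None of the 40 combinations could pass below the exact permutation p of 0.1, and the smallest adjusted p over the 40 was 0.174. Each value is the shift of a target minus the shift of a reference, so the 40 are not independent. A target that fell more than the lowest reference is negative against all of them, so this count is not agreement between references. Relative to ppiab, gpib was lower by 2.88 on the log2 scale, a ratio of 0.136 of the wild type level, where 27.6% of all genes were lower without overlap. Relative to ppib the difference of gpib was -1.75, a ratio of 0.297, where 6.47% of all genes were lower, and relative to lsm12b it was -1.24, a ratio of 0.423, with overlap. For pfkma it was -2.36 (a ratio of 0.194) against ppiab, -1.24 (0.423) against ppib, -0.89 (0.541) against actb1 ENSDARG00000037746 and -0.73 (0.605) against lsm12b, of which the last overlapped. For pck2 ENSDARG00000020956 it was -2.91 against ppiab, without overlap, and -1.79 against ppib, with overlap.

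**Figure D5:**
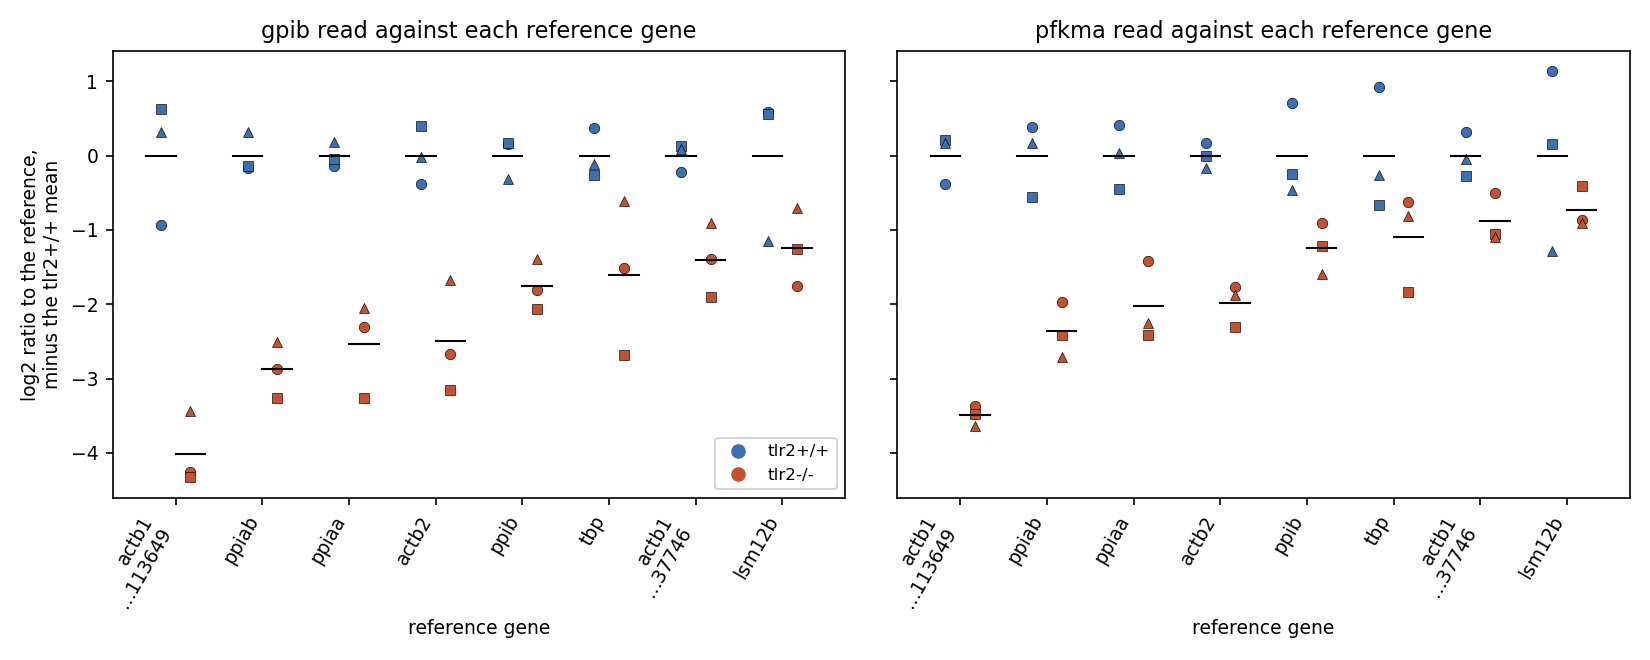
Log2 ratio of gpib (left) and pfkma (right) to each of 8 reference gene entries in each library, minus the tlr2+/+ mean for that reference, with blue symbols for tlr2+/+, orange symbols for tlr2-/- and black lines for group means. All tlr2-/- means lie below 0, from -4.01 with actb1 ENSDARG00000113649 to -1.24 with lsm12b for gpib, and ppiab gives the second most negative value for both genes.

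Other genes that are in use as references were read in the same fit. Of 29 tested entries 20 were positive and 9 negative (median log2 fold change 0.17), with 1 higher and 3 lower at an unadjusted p under 0.05, beside 1.73% and 1.99% of all genes, and none past the adjusted threshold. eef1a1l1, a translation elongation factor, was measured at 20736, 19229 and 10954 CPM in tlr2+/+ and at 19753, 18722 and 17969 CPM in the mutant libraries. The log2 fold change was 0.15 (SE 0.42), with an SD of 0.340 over the 6 libraries. The polyubiquitin gene ubc (log2 fold change 0.30, SD 0.403) and the ribosomal protein genes rpl13a ENSDARG00000116541 (0.53, SD 0.459) and rpl8 (0.40, SD 0.487) also overlapped, as did the glycolytic gapdh (0.17, SD 0.559). rplp0, a protein of the ribosomal stalk, had 6939 ± 3480 CPM in tlr2+/+ and 13690 ± 1551 CPM in the mutant without overlap (log2 fold change 0.98). The 1 higher entry, named after its values were seen, was the other rpl13a entry, ENSDARG00000044093, with a log2 fold change of 0.78 (SE 0.36). The 3 with the smallest p were lower in every mutant library. They were ywhaz, a 14-3-3 protein, at 66.8 ± 9.52 and 30.6 ± 4.20 CPM (log2 fold change -1.13), eef1a1a at 140 ± 28.2 and 61.1 ± 19.3 CPM (-1.19), and the glycolytic pgk1 at 503 ± 118 and 271 ± 42.9 CPM (-0.89).

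The genes whose level followed ppiab most closely were sought among 5805 genes with a mean of at least 10 CPM, by the SD of the log2 ratio to ppiab over the 6 libraries, as a description. They were cstf2, a factor in the cleavage of pre-mRNA 3′ ends, with an SD of 0.0814 and a mean of 195 CPM, tab1, a partner of the kinase TAK1, with 0.0932 and 42.5 CPM, and cox8a, a subunit of cytochrome c oxidase, with 0.0994 and 640 CPM. cstf2 was measured at 162, 146 and 68.0 CPM in tlr2+/+ and at 258, 269 and 269 CPM in the mutant libraries, the same order of groups and the same low wild type replicate 3 as ppiab. ppiaa was 145th in this order, and 0 other reference genes were among the nearest 100.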

How the data were processed

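The authors estimated transcript levels with Salmon 1.2.1 on GRCz11 and deposited, per library, estimated counts and TPM of 57192 transcripts. Their gene table holds means (signal, normalized with DESeq2 1.24.0), shrunken log2 fold changes and s-values; of these, the deposited mean signal alone was used, to join transcripts to genes. A gene was joined to up to 40 neighbouring transcripts that gave its mean within 1e-12 (21079 of 23956 genes with a mean above 0, at least 99.9% of reads). Symbols of ppiab and its older name, and gene order, came from RefSeq of GRCz12tu.

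Sums of the estimated counts over the transcripts of a gene were rounded. edgeR 4.0.16 (default filter, TMM, robust quasi-likelihood fit, R 4.3.3) tested genotype, with Benjamini-Hochberg adjustment at 0.05. The SE is the log2 fold change divided by the root of F, and its 95% interval uses the t distribution with edgeR's degrees of freedom. Permutation tests were exact and two-sided (scipy 1.17.1), and p-values reflect the variation between crosses sequenced here. The fit was also run on simulated data with less variation between libraries than here, so that run does not show its performance at this spread.

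Members and lists were chosen with earlier results of these data known. Named are all members, tlr2, the qPCR targets, up to 3 list genes of smallest p, the 6 most abundant other references and 3 genes nearest to ppiab; grin2ab and a second rpl13a entry were named after their values were seen. Alternatives were other scalings, filters, summed entries, length offsets, a replicate block, each library left out, DESeq2 1.42.0 and limma 3.58.1 on log2 TPM. Wild type replicate 3 alone, overlap without it, and voom with sample weights were added after seeing the data.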

Additional observations from a re-analysis of the deposited data

How the results depend on the processing

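Over the 10 reference entries, 158 alternative log2 fold changes kept their sign and side of the threshold, 24 changed sign and 7 newly passed it. All 320 alternative target ratios kept their sign, but they rest on the same targets and references and are not independent. The causes of the changes of sign or side were not tested. All genes called (1 in the edgeR fit) were 0 with no scaling factors, 3 with no filter, 0 with a mean CPM of at least 1, 0 with entries summed, 30 with DESeq2, 7 on log2(TPM + 1), 0 on log2(TPM + 0.1), 3 with voom and sample weights and 0 to 5 with 1 library left out (5, 2 and 0 without wild type replicates 1, 2 and 3, and 4 without mutant replicate 3). Beside the 1 called gene, 625 had an unadjusted p under 0.05, and where 0 were called 972, 667, 605 and 1437 had one in that order, and 2923 without wild type replicate 3. Wild type replicate 3 alone against the mutants, assumed to vary like them, gave 758 calls (712 higher, 46 lower). There ppiaa (1.73, adjusted p = 0.0129), ppiab (2.18, 0.00147), actb2 (1.49, 0.0344) and actb1 ENSDARG00000113649 (3.32, 1.84e-04) passed, and ppib (0.42), actb1 ENSDARG00000037746 (0.48), hprt1 (-0.25), tbp (0.59) and b2m (2.65) changed sign.

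actb1 ENSDARG00000113649 passed with DESeq2 (1.98, adjusted p = 0.0336) and voom (2.19, 0.00585), and stood at 1.64 to 2.94 with 1 library left out. With entries summed actb1 had 0.32, an SD of 0.484 and an M of 0.498. The sign of ppib, near 0, turned with RLE (0.0245), upper quartile (0.0805), length offsets (0.0248), DESeq2 (0.0246) and the filter at a mean CPM of 1 (4.73e-04), and its range with 1 library left out was -0.10 to 0.15. tbp ranged from -0.58 to 0.22, and b2m from -1.22 to 3.47, with 0.27 on log2(TPM + 0.1) and 1.198 with voom. hprt1 had -0.0365 with no scaling factors, which moved the median of all genes to -0.42 from 0.02 (upper quartile 0.12, log2(TPM + 1) -0.22, log2(TPM + 0.1) -0.17, voom 0.41, replicate block 0.33). On log2(TPM + 0.1) the SD of ppib was 0.356.

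The deviations of replicates of the same number had correlations of 0.0207, 0.0561 and 0.0986, beside -0.132 to 0.0652 for replicates of different numbers. With 3 libraries a genotype these values cannot decide whether the numbers pair the libraries. With a replicate block 64 genes were called, actb1 ENSDARG00000113649 passed (2.27, adjusted p = 3.19e-04), and ppib (0.00584) and b2m (0.95) changed sign. With 3 libraries a genotype and this spread, modest differences cannot be told from none, and b2m and hprt1 are limited by their counts.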
